A study of Mus musculus with 10 samples.

Results

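Monoamine synthesis, transport and breakdown were examined through 9 genes, the oxidases Maoa and Maob, the synthetic enzymes Th, Ddc, Dbh and Tph1, and the transporters Slc6a3, Slc6a4 and Slc18a2. The members were taken by gene symbol. The array has probe sets of their own for 8251 genes, and 6 of the 9 members are among these, with 10 of the 12488 probe sets: Maoa with 3 probe sets, Tph1 and Slc6a4 with 2 each, and Th, Ddc and Slc6a3 with 1 each. Maob, Dbh and Slc18a2 were not analysed here. RNA of the whole brain of mice at postnatal day 0 had been hybridised to 10 Affymetrix arrays. Animals with 39 chromosomes and a single X were compared with XX females of 40 chromosomes. XmO animals, whose single X is maternal by their name (39,Xm), numbered 3 arrays (labelled 1, 2 and 7); their cross, C57BL/6J x C3H/Paf, is also that of the 3 XX_Paf females (1, 2 and 3). XpO animals (39,Xp, a paternal X) numbered 2 arrays (15 and 18), and they share In(X)/C3H x C57BL/6J with the 2 XX_InX females (1 and 19). All 4 groups thus come from crosses of C57BL/6J with a C3H line named for Paf or In(X). The parental origin of the single X goes with the cross, so differences between XmO and XpO, or between their monosomy effects, cannot tell the 2 apart. The labels do not say which animals carry Paf or In(X), which parent is written first, or whether an array holds 1 animal or a pool.

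Monoamine neurons make dopamine, noradrenaline or serotonin. Tyrosine hydroxylase (Th) makes L-DOPA from tyrosine, the slow step on the way to dopamine and noradrenaline, and tryptophan hydroxylases make the serotonin precursor; aromatic L-amino acid decarboxylase (Ddc) then completes both dopamine and serotonin. Plasma membrane transporters take the released amine back up (Slc6a3 for dopamine, Slc6a4 for serotonin), and the monoamine oxidases of the outer mitochondrial membrane break it down. The cell bodies of these neurons lie in small groups in the midbrain and hindbrain, so their RNA is a small part of that of a whole brain. Maoa is X-linked and lies beside Maob, and the other measured members are autosomal.

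The sequences before the transcription start are given for 3 of the members, Maoa, Ddc and Th. Those of the other members are not printed, so the promoters of the pathway are not compared as a set. Each is 250 bases that end just before a start site in RefSeq (build GRCm38.p6), 5′ to 3′ on the strand of the gene. Capitals mark matches on either strand, and no matches overlap. The GC box that binds Sp1 family proteins was searched as GGGCGG. The TATA box, which positions the transcription start in a minority of promoters, was searched as TATAAA. The cyclic AMP response element was searched in its full palindrome, TGACGTCA, and the CCAAT box by those letters.
Maoa, chrX:16619448-16619697, plus strand: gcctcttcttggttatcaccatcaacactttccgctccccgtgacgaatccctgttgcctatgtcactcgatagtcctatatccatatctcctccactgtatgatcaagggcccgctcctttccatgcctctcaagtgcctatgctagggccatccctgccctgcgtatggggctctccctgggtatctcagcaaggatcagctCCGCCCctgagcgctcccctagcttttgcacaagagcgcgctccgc
Th, chr7:142899996-142900245, minus strand: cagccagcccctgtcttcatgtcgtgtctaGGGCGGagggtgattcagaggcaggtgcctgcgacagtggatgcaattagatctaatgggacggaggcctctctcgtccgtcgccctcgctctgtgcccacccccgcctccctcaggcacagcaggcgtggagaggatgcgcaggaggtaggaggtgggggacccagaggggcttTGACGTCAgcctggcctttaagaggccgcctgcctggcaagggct
Ddc, first start, chr11:11898145-11898394, minus strand: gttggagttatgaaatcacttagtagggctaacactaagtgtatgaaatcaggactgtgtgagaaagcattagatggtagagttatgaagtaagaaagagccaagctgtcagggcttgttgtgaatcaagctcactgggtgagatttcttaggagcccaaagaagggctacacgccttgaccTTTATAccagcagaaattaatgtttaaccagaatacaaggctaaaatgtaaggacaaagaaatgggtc
Ddc, second start, chr11:11890409-11890658, minus strand: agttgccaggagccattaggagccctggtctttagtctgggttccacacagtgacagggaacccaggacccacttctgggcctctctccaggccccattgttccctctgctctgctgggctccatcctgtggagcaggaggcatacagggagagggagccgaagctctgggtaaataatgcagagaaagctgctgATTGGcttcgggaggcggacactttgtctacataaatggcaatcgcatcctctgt
Of the 32851 promoter windows in the table, cut to the same 250 bases, 32.7% held a GC box, 12.4% a TATA box, 1.55% a cyclic AMP response element and 33.9% a CCAAT box. The Maoa window held 1 GC box, starting 46 bases before the start, and no TATA match. The Th window held the cyclic AMP response element 45 bases before the start and a GC box 220 bases before it. The Ddc windows differed from each other, with a TATA match 68 bases before the first start and a CCAAT match 55 bases before the second. Such matches are letters only, and the Ddc probe set is not known to tell the 2 starts apart.

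The deposited intensities had the same trimmed mean on every array (500.3), and any 2 arrays had a Pearson's r of 0.937 to 0.959 over their probe sets on the log2 scale (probe sets are no replicates). Xist, transcribed from the inactive X, was at 1673 to 4082 on the XX arrays and at 21.3 to 49.9 on the XO arrays, as the labels require. Neuronal markers were above background on all arrays for 11 of 11 genes, and their summed intensity was 62140 to 71739. Background was taken as the brightest of 9 Y-linked probe sets on each array (33.6 to 136.6), since these animals have no Y. The adult globin genes lead an erythroid and platelet list whose summed intensity was 11531 to 17659 in XmO and 12024 to 17435 in XX_Paf, but 6286 to 7803 in XpO and 4481 to 6476 in XX_InX. Markers of choroid plexus and meninges summed to 24135 to 24417 in XX_InX and to 16054 to 21827 elsewhere. Skeletal muscle markers summed to 4201 on XX_Paf 2 and to 758 to 1578 on the other 9 arrays. Without XX_Paf 2, the log2 fold change in XmO against XX_Paf was 0.42 for Maoa and 0.65 for Ddc, beside 0.44 and 0.61 with it. The 2 probe sets of Slc6a4 gave 0.82 and -0.26 without it, beside 0.67 and -0.18. Slc6a3 gave 0.19 beside 0.25, and Th -0.26 beside -0.22. The part of blood and of choroid plexus and meninges in the values below was not tested. In whole tissue, fewer cells of a type and less RNA per cell cannot be told apart.

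Maoa, which oxidises serotonin and noradrenaline, was lower in the XX_Paf females than in all other arrays. On its bright probe set (suffix _at) the intensity was 1016, 974 and 968 in XmO 1, 2 and 7, and 783, 712 and 692 in XX_Paf 1, 2 and 3. It was 952 and 959.9 in XpO 15 and 18, and 898 and 996 in XX_InX 1 and 19. The 3 XX_Paf arrays did not overlap the other 7, among which the group means lay within a narrow band: 986 ± 26.3 in XmO (SD, n = 3), 956 ± 5.37 in XpO (n = 2) and 947 ± 69.6 in XX_InX (n = 2), against 729 ± 47.7 in XX_Paf (n = 3). Of the 8695 probe sets tested, 1.96% were lower in XX_Paf than on every other array. The means of both single-X groups were thus no lower than that of the XX_InX females, which have a pair of X chromosomes. The 3 XmO arrays lay just above the 2 XpO arrays.

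**Figure D1:**
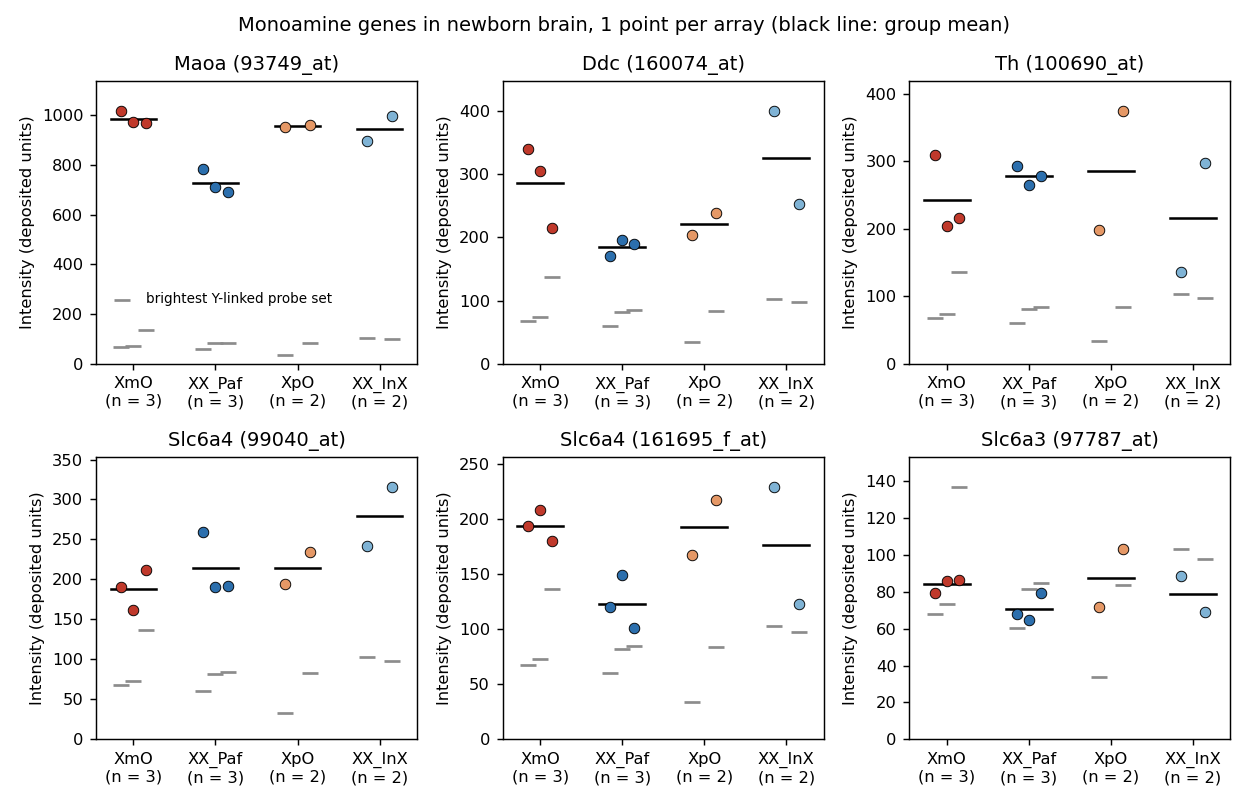
Intensity of the 6 tested probe sets on each of the 10 arrays (y axis, deposited units, from 0) by group, with the group mean as a black line and the brightest Y-linked probe set of each array as a grey dash. For Maoa the 3 XX_Paf arrays sit at 692 to 783, under all others (898 to 1016), and Slc6a3 lies among the grey dashes.

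The Maoa estimate in XmO against XX_Paf was a log2 fold change of 0.44 (SE 0.11, 95% interval 0.19 to 0.68), or 1.35-fold. It did not pass over all probe sets tested (limma, adjusted p = 0.705), where it was 27th of 8695 by p; with no filter on low values the adjusted p was 0.364, and over all alternatives it ran from 0.364 to 1. In XpO against XX_InX the estimate was 0.02 (SE 0.14, interval -0.29 to 0.32); it was -0.059 without XX_InX 1 and 0.091 without XX_InX 19. The intervals of the 2 crosses overlap. The difference of the monosomy effects between the crosses was 0.42 (SE 0.18, interval 0.03 to 0.81; limma, adjusted p = 0.832), and did not pass either. XX_Paf against XX_InX, the XX females of both crosses, gave -0.38 (SE 0.13; limma, adjusted p = 0.240), and XmO against XpO gave 0.04 (SE 0.13, interval -0.23 to 0.32). Within groups Maoa was among the steadiest probe sets, with a pooled SD of 0.07 on the log2 scale against a median of 0.23 over all tested, and 1.5% of the probe sets had a smaller one. With each array left out in turn, Maoa in XmO against XX_Paf was at 0.40 to 0.49.

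Both other Maoa probe sets, of the type that Affymetrix marks _f_at for sequence shared with related transcripts, did not rise above background on any of the 10 arrays. One was at 13.3 to 37.5 in XmO and 2.7 to 3.7 in XX_Paf, and the other at 0.9 to 34.1 and 0.7 to 12.9. They were under the filter on low values, and no fold change is given for them.

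Among 235 X-linked probe sets tested, Maoa ranked 4th by p in XmO against XX_Paf and 200th in XpO against XX_InX. In the first of these the median estimate of the X-linked probe sets was -0.03, with 106 of 235 higher in XmO. The genes on either side of Maoa on the X had estimates of either sign, and their differences from Maoa were not tested. Cask, its nearest measured neighbour on one side, which encodes a synaptic scaffold kinase, had -0.04 (SE 0.12) in XmO against XX_Paf, and Ndp, the norrin gene on the other side, had 0.10 (SE 0.21, interval -0.35 to 0.55, which includes the Maoa estimate). The histone demethylase gene Kdm6a and the RNA helicase gene Ddx3x are both known to escape X inactivation. Kdm6a had -0.47 (SE 0.15) and the Ddx3x _f_at probe set -0.38 (SE 0.14), of the opposite sign to Maoa. The Ddx3x _at probe set had 0.42 (SE 0.19), close to Maoa. None of these passed (limma, adjusted p from 0.877 to 0.963). In XpO against XX_InX Kdm6a had -0.08 (SE 0.18), and the Ddx3x _f_at and _at probe sets had -0.04 (SE 0.17) and 0.44 (SE 0.24). None passed there either.

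**Figure D2:**
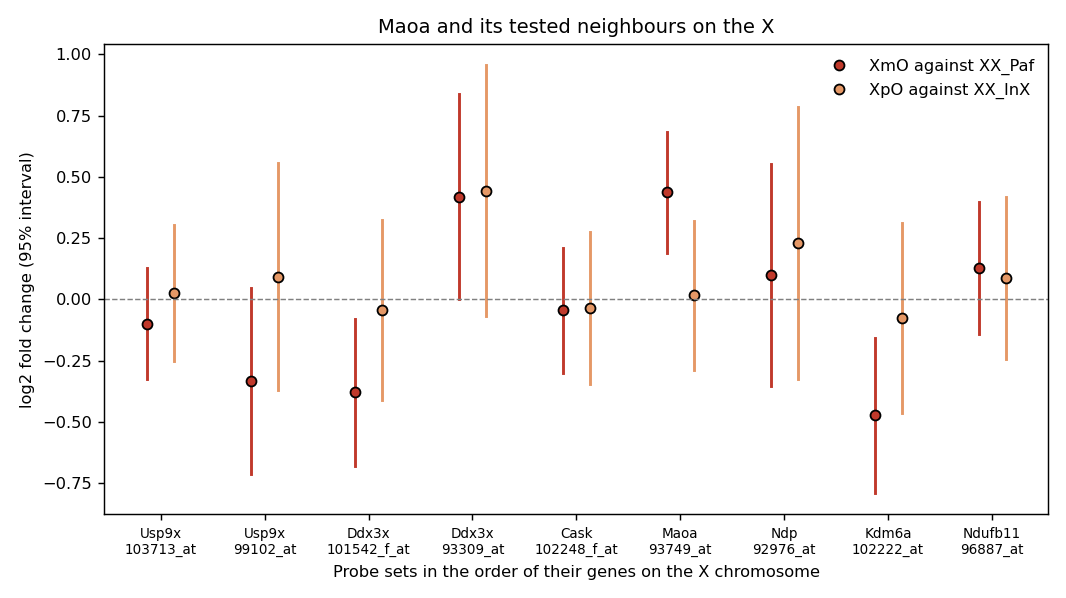
Log2 fold change with its 95% interval (y axis) for Maoa and the tested probe sets of its nearest measured genes, in the order of the genes on the X (x axis), for XmO against XX_Paf and XpO against XX_InX. Maoa stands at 0.44 and 0.02, between Cask (-0.04 in XmO against XX_Paf) and Ndp (0.10).

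Ddc, the decarboxylase shared by the dopamine and serotonin pathways, had estimates of opposite sign in the 2 crosses. Its intensity was 339.5, 306 and 214 in XmO 1, 2 and 7, and 170.1, 196 and 189.6 in XX_Paf 1, 2 and 3. It was 204 and 238 in XpO 15 and 18, and 399.5 and 252 in XX_InX 1 and 19. Every XmO array was above every XX_Paf array, and both XpO arrays were below both XX_InX arrays. The estimate was 0.61 (SE 0.23, interval 0.11 to 1.10) for XmO against XX_Paf and -0.53 (SE 0.28, interval -1.13 to 0.08) for XpO against XX_InX, neither past the threshold (limma, adjusted p = 0.877 and 1). The difference between them, 1.13 (SE 0.36, interval 0.35 to 1.92), was the largest of the members' estimates of that kind and did not pass (limma, adjusted p = 0.832). With each array left out it ran from 0.80 to 1.46, and since the groups do not overlap in either cross its sign could not turn. Over both crosses the 2 effects cancelled to 0.04 (SE 0.18). Like Maoa, Ddc was lower in XX_Paf than on all other arrays, and XX_Paf against XX_InX gave -0.78 (SE 0.26; limma, adjusted p = 0.228).

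The 2 XX_InX arrays set much of the Ddc values in the In(X) cross. XpO against XX_InX was -0.19 without XX_InX 1 and -0.86 without XX_InX 19, and XX_Paf against XX_InX was -0.45 and -1.11.

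Th, the marker of catecholamine neurons, varied more within groups than between them. Its intensity was 309, 204 and 216 in XmO 1, 2 and 7 and 293, 265 and 278 in XX_Paf 1, 2 and 3. In the In(X) cross it was 198 and 374 in XpO 15 and 18, and 136 and 297.5 in XX_InX 1 and 19. All groups overlapped, and the within-group SD of 0.46 on the log2 scale was larger than that of 87.4% of the probe sets tested. The estimate was -0.22 (SE 0.31) for XmO against XX_Paf and 0.44 (SE 0.37) for XpO against XX_InX, and the intervals of -0.88 to 0.44 and -0.37 to 1.25 leave room for a change in either direction. Leaving out XpO 18 or XX_InX 1 turned the second estimate to -0.02 or -0.13.

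Tph1, the tryptophan hydroxylase best known from the pineal gland, mast cells and gut (neurons use Tph2), was not above background. Its _at probe set was at 3.3 to 14.1 and its _r_at probe set at 2.7 to 43.9, below background on all 10 arrays. Of 8 mast cell markers with a probe set, 4 were likewise not above it on any array: Cpa3, Mcpt4 and the IgE receptor chains Fcer1a and Ms4a2. Of the other mast cell markers, Tpsb2 and Kit were above it on all 10 arrays, Cma1 on 8 and Hdc on 3. Of 3 pineal markers measured, Aanat was above it on all 10 arrays, Crx on 9 and Sag on 1.

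Slc6a4, the serotonin transporter, was read by 2 probe sets that gave different orders of the groups. On the _at probe set it was 191, 162 and 212 in XmO 1, 2 and 7, 259.6, 191 and 192 in XX_Paf 1, 2 and 3, 195 and 234.5 in XpO 15 and 18, and 242 and 316 in XX_InX 1 and 19. Both XX_InX arrays were above all XmO and XpO arrays here, while XmO, XpO and XX_Paf overlapped. On the _f_at probe set it was 193, 208 and 180.2 in XmO, 120.0, 149 and 101 in XX_Paf, 167 and 217 in XpO, and 229 and 123 in XX_InX, in the same order of arrays. On this probe set it was XX_Paf that was low, under every XmO and XpO array but overlapping XX_InX 19.

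For XmO against XX_Paf the _at probe set gave -0.18 (SE 0.21) and the _f_at probe set 0.67 (SE 0.27), and over both crosses XO against XX gave -0.28 (SE 0.17) and 0.43 (SE 0.21). Single arrays moved these values: in XO against XX the _f_at value was 0.65 without XX_InX 1 and 0.20 without XX_InX 19, where the _at value was -0.18. In XmO against XX_Paf the _at value was -0.034 without XX_Paf 1 and -0.075 without XmO 2. No value passed on either probe set (limma, lowest adjusted p 0.488, for the _at probe set in XX_Paf against XX_InX). Since the 2 probe sets of 1 gene went opposite ways in XO against XX, no direction is given for Slc6a4.

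Slc6a3, the dopamine transporter, lay close to background. It was 79.4, 86.0 and 86.3 in XmO 1, 2 and 7, 67.8, 64.6 and 79.2 in XX_Paf, 71.8 and 103 in XpO and 88.5 and 68.7 in XX_InX, above background on 5 of 10 arrays (2 XmO, 1 XX_Paf and 2 XpO). It was the member just inside the filter on low values, which stood at a geometric mean intensity of 68.3 (Slc6a3 78.8), while the next dimmer member, the _r_at probe set of Tph1, was at 23.6. Its estimates ran from -0.15 to 0.25 over the 6 comparisons, with SEs of 0.27 to 0.53.

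Across the members, no probe set passed in any comparison. In XO against XX, 0 of the 6 tested member probe sets were called (limma, adjusted p under 0.05), against 0.0115% of all tested; at an unadjusted p under 0.05 there was 1, Maoa (0.23, SE 0.09), against 2.60%, and none was without overlap in either direction (0.357% higher and 0.495% lower). In XmO against XX_Paf 0 were called (background 0.0230%). An unadjusted p under 0.05 was seen for 3, against 5.53% of all tested: Maoa, Ddc and the Slc6a4 _f_at probe set, all with higher estimates in XmO. There, 4 of the 6 were higher on every XmO array than on every XX_Paf array, those 3 and Slc6a3 (by 79.4 against 79.2 at the nearest), against 6.96% of all tested; none was lower in this way (6.97%). The members' median estimate was 0.35, beside 0.00 for all tested. The other Slc6a4 probe set had -0.18 with overlap, so no direction is given for that gene. Slc6a3 was above background on only 2 XmO arrays and 1 XX_Paf array. The members were chosen with earlier results of these data known, Maoa among them.

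The other comparisons gave fewer such values. In XpO against XX_InX 0 of 6 were called (background 0.0115%) and 0 passed an unadjusted p of 0.05 (limma; 3.38% of all tested), and Ddc and the Slc6a4 _at probe set were lower without overlap (12.1% of all tested) and none higher (11.3%). In XmO against XpO 0 were called (0.0115%) and 0 passed an unadjusted p of 0.05 (limma; 4.83%); Maoa was higher in XmO without overlap (8.59%), by 0.04 on the log2 scale, and none was lower (8.83%). In the difference of monosomy effects 0 were called (0.0230%), and Ddc and Maoa had an unadjusted p under 0.05 (limma; 5.91%). In XX_Paf against XX_InX 0 were called (0.0805%), while Ddc and Maoa had an unadjusted p under 0.05 (limma; 13.8%) and were lower without overlap (19.5%), with none higher (17.6%). XO against XX, XmO against XX_Paf, the difference of effects and XX_Paf against XX_InX all use the 3 XX_Paf arrays. Their values for Maoa and Ddc are thus not separate observations.

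**Figure D3:**
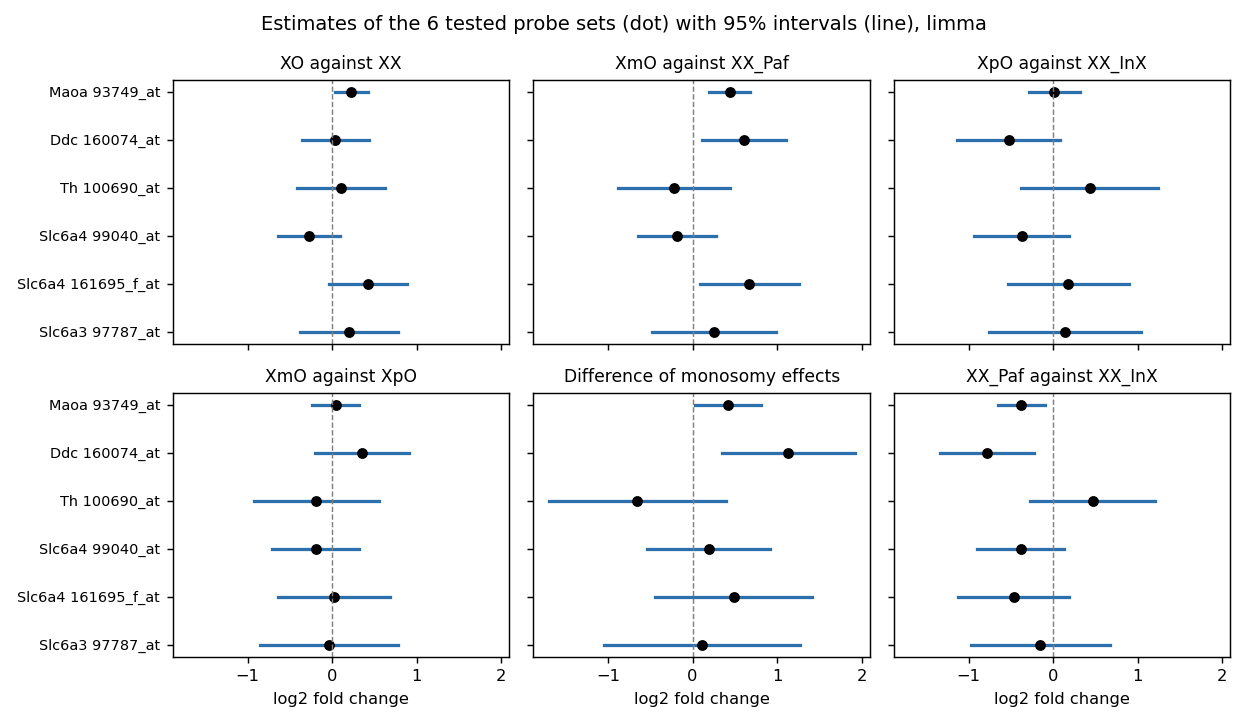
Log2 fold change (dot) with its 95% interval (line) from limma for the 6 tested probe sets in each of the 6 comparisons. In XmO against XX_Paf the intervals of Maoa (0.19 to 0.68), Ddc (0.11 to 1.10) and the Slc6a4 _f_at probe set (0.08 to 1.26) lie above 0, and in XpO against XX_InX all 6 intervals include 0.

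The wider monoamine system was described through 6 lists of 93 genes in all, of which 63 have a probe set and 48 (58 probe sets) passed the filter on low values. No gene of these lists was called in any comparison (limma); at an unadjusted p under 0.05 there were 1 of 58 probe sets in XO against XX (1.72%, beside 2.60% of all tested), 3 in XmO against XX_Paf (5.17%, beside 5.53%) and 2 in XpO against XX_InX (3.45%, beside 3.38%). There were 3 in XmO against XpO (5.17%, beside 4.83%), 3 in the difference of effects (5.17%, beside 5.91%) and 8 when the XX females were compared (13.8%, beside 13.8%). These shares lie near those over all probe sets. Receptors had 14 probe sets tested: 12 had a higher estimate in XmO than in XX_Paf, with a median of 0.21 (all tested 0.00), and 11 a lower one in XX_Paf than in XX_InX, with a median of -0.32 (all tested -0.02). Of all 8695 tested, 30.1% were higher in XmO and lower in XpO, each against its XX group, and 20.3% were higher in both. XmO against XX_Paf and XX_Paf against XX_InX share the 3 XX_Paf arrays. Their counts and medians, for each list, are thus not separate observations. The list of transcription factors of monoamine neurons, with 10 probe sets tested, had 7 higher in XmO than in XX_Paf (median 0.08) and 7 lower in XX_Paf than in XX_InX (median -0.37). The enzymes of the tetrahydrobiopterin cofactor and of further synthesis steps had medians of 0.05 and 0.08 in those comparisons (7 probe sets). The further breakdown enzymes, among them the aldehyde dehydrogenases that act after the oxidases, had 0.00 and -0.02 (10 probe sets). The other transporters, with 3 probe sets, had 0.23 and 0.37, and the regulators of enzymes and transporters, with 14, had 0.09 and -0.21. The transporter medians rest on 2 genes, and 0 of their 3 probe sets were above background on all arrays. Between the XX females the 2 probe sets of Slc6a2 went opposite ways (0.37 and -0.82), so no contrast with receptors is drawn.

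In each comparison, up to 3 genes of these lists with the smallest p and no overlap were named. Receptors and regulators, with 14 tested probe sets each, supplied most of them. Without overlap, 7 of the 58 were higher and 1 lower in XmO against XX_Paf (all tested 6.96% and 6.97%). In XpO against XX_InX it was 6 and 6 (11.3% and 12.1%), and in XmO against XpO 7 and 6 (8.59% and 8.83%). In XX_Paf against XX_InX, 3 were higher and 19 lower (17.6% and 19.5%). The dopamine D4 receptor gene Drd4 was at 344 ± 51.8 in XmO (SD, n = 3), 232 ± 38.5 in XX_Paf (n = 3), 343 ± 109 in XpO (n = 2) and 397 ± 1.77 in XX_InX (n = 2), with estimates of 0.57 (SE 0.21) for XmO against XX_Paf and -0.79 (SE 0.23) for XX_Paf against XX_InX. The serotonin 1B receptor gene Htr1b was at 219 ± 20.2 in XmO and 137 ± 44.6 in XX_Paf (0.73, SE 0.28), and the transcription factor gene Nkx2-2 at 309.6 ± 3.11 and 242 ± 25.0 (0.36, SE 0.16). None of these passed (limma, adjusted p = 0.877 for all 3 in XmO against XX_Paf, and 0.193 for Drd4 in XX_Paf against XX_InX). XX_Paf had the lowest group mean of each. The choice for this comparison fixes that XX_Paf and XmO do not overlap, and favours an extreme XX_Paf mean. It did not compare XX_Paf with XpO or XX_InX.

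In XpO against XX_InX the neurotrophic factor gene Gdnf had -0.54 (SE 0.21) and the aldehyde dehydrogenase gene Aldh2 -0.43 (SE 0.20, brighter probe set -0.19). Pick1, a scaffold that binds the dopamine transporter, had 0.43 (SE 0.20), but its other tested probe set had -0.0055. Gdnf was also lower in XX_Paf than in XX_InX (-0.58, SE 0.19), but both values use the same 2 XX_InX arrays and are not separate observations. In XmO against XpO the ligand-gated serotonin receptor gene Htr3a had 0.92 (SE 0.29), and the 14-3-3 genes Ywhaz and Ywhag, whose protein family binds tyrosine and tryptophan hydroxylase, had -0.36 (SE 0.11) and -0.58 (SE 0.18; brighter Ywhag probe set -0.04). Ywhaz also had -0.52 (SE 0.11) in XX_Paf (8745 ± 732, n = 3) against XX_InX (12475 ± 614, n = 2), the smallest adjusted p of these lists (limma, 0.139). None of the values in these comparisons passed.

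**Figure D4:**
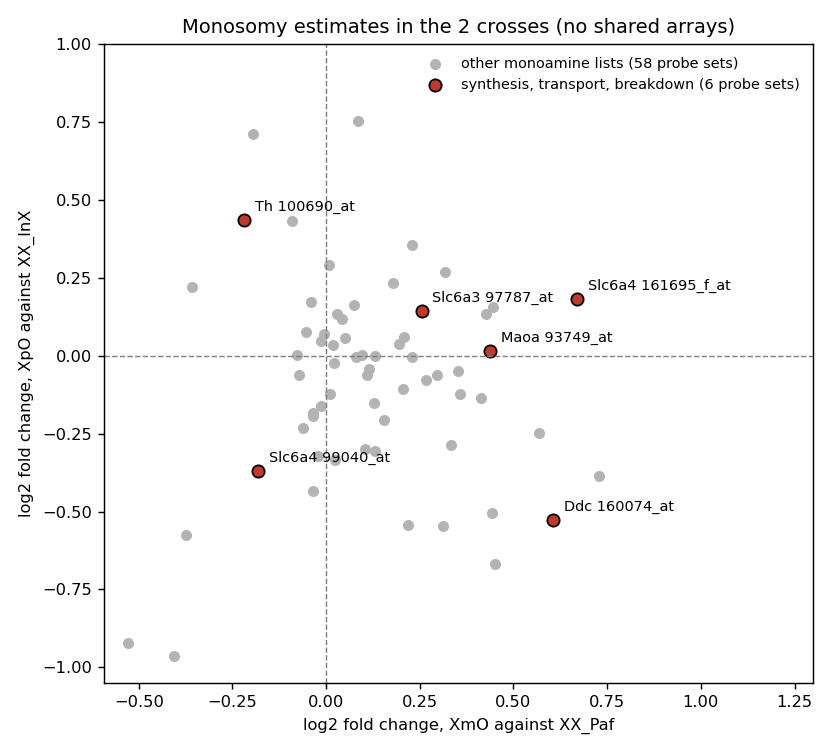
Log2 fold change for XmO against XX_Paf (x axis) and XpO against XX_InX (y axis), which share no array, for the 6 member probe sets and 58 probe sets of the other monoamine lists. Ddc stands at 0.61 and -0.53, and of the 58 grey points 25 are higher in XmO and lower in XpO, 8 the other way round, 15 higher in both and 10 lower in both. Over all 8695 probe sets tested these shares are 30.1%, 27.5%, 20.3% and 22.0%.

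The probe sets whose log2 values followed each member most closely over the 10 arrays were named as a description; they were picked as the highest of all tested, and group differences and scaling enter the coefficients. For Maoa they were D2hgdh (Pearson's r 0.912), Spag7 (0.905) and Grcc10 (0.892), for Ddc Bcl2l11 (0.891), Gpr27 (0.891) and Fam107b (0.876), and for Th Hap1 (0.871), Smyd2 (0.869) and Cacng2 (0.856). For the Slc6a4 _at probe set they were Pdxdc1 (0.895), Pde1b (0.879) and Rnf14 (0.858). No other member was among them.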

How the data were processed

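The deposited table holds 1 linear intensity for each probe set and array, scaled by the authors so that the mean of each array after trimming 2% at each end is 500.3, as read from the values. The summarisation of probes, software and genome build: not given in the sources used here. Of 12488 probe sets 66 were controls; of the rest, 10833 have 1 gene symbol in the platform annotation, 396 several and 1193 none. Intensities under 15 (the 10th percentile) were raised to it before log2, and probe sets with a mean at or over the 30th percentile (8695) were tested with limma 3.58.1 in R 4.3.3 (1 mean per group, all 10 arrays, intensity trend, 6 residual degrees of freedom, two-sided, Benjamini-Hochberg adjustment within each of 6 comparisons, called at an adjusted p under 0.05). Fold changes are log2 differences, the first group minus the second. XO against XX weights both crosses equally. Of the 10 member probe sets, 6 were tested.

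All member probe sets were named. From the other lists the rule named called genes and, in each comparison, up to 3 of smallest p without overlap. Members and lists were chosen with earlier results of these data known, and the neighbours of Maoa after its values were seen. Nothing says that arrays are separate animals, and p-values may reflect only technical scatter among them. The fit was checked on simulated data. Alternatives were the normalization, floor, filter, variance model, arrays fitted, replicate block and each array left out.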

Additional observations from a re-analysis of the deposited data

How the results depend on the processing

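No member probe set was called by limma in any of the 6 comparisons under any alternative run (quantile normalization, no floor, an offset of 16, no filter, a filter at the 50th percentile, 2 other variance models, only the 2 groups compared, the replicate block, each array left out). Of 630 estimates of members under these alternatives, 312 were left as they were, since variance models, filters, the floor (all tested members lie above it) and arrays outside a comparison do not enter them. Of the 318 that moved, 294 kept their direction and 24 turned, 22 of them with 1 array left out; the cause was not tested. Slc6a3 turned with quantile normalization to -0.091 in the difference of effects and to 0.025 in XX_Paf against XX_InX. With 1 array left out, the ranges that cross 0 were, in XO against XX, -0.13 to 0.21 for Ddc and -0.17 to 0.39 for Th. In XpO against XX_InX they were -0.059 to 0.091 for Maoa, -0.12 to 0.41 for Slc6a3, -0.26 to 0.63 for the Slc6a4 _f_at probe set and -0.13 to 1.003 for Th. In XmO against XpO they were -0.30 to 0.22 for Slc6a3, -0.17 to 0.21 for the Slc6a4 _f_at probe set and -0.65 to 0.27 for Th. In the difference of effects they were -0.15 to 0.37 for Slc6a3 and -0.0004 to 0.38 for the Slc6a4 _at probe set, and in XX_Paf against XX_InX -0.33 to 0.033 for Slc6a3 and -0.10 to 1.04 for Th. Where 1 array of a group of 2 is left out, the other is assumed to vary like the other groups.

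Over all probe sets the counts called were 1, 2, 1, 1, 2 and 7 in the order of the 6 comparisons (XO and XX, the Paf cross, the In(X) cross, both XO groups, difference of effects, both XX groups). They ranged over the alternatives from 1 to 5, 1 to 4, 1 to 7, 1 to 7, 0 to 5 and 2 to 35. With no filter they were 5, 4, 7, 3, 5 and 17. The replicate numbers 1 and 2 occur in both XmO and XX_Paf. Nothing says that they pair animals, so the numbers were not taken as pairs. Deviations of same-numbered arrays from their group means correlated at -0.01 and -0.04, but so few pairs cannot decide whether the numbers pair animals. With the replicate number as a block, on the XmO and XX_Paf arrays alone, 0 members and 1 probe set were called in XmO against XX_Paf. Ddc was at 0.82 and the Slc6a4 _at probe set at -0.34. XmO 7 and XX_Paf 3 have no partner of the same number, so these estimates rest on arrays 1 and 2 of each group. They are not a second estimate from all arrays of the 2 groups. The number of arrays limits the precision, and Tph1 and 2 Maoa probe sets were not above background.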
